A study of Mus musculus with 7 samples.

Results

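The 9 genes described here were listed as markers of excitatory neurons of the forebrain, among them those of the amygdala: Slc17a7, Slc17a6, Camk2a, Neurod2, Neurod6, Tbr1, Rspo2, Nrn1 and Sv2b. Whether they are confined to such neurons was not tested. They were taken by gene symbol from the deposited table of raw RNA-seq counts, where all 9 were found among 35976 gene symbols. The values come from 7 libraries of neurons isolated from the amygdala of male C57BL/6J mice. In 4 libraries the mice had received an adeno-associated virus (AAV) with a guide RNA against the Rosa locus, a control site (sgRosa), and in 3 a guide against Nr2f2 (sgNr2f2), the gene of the nuclear receptor COUP-TFII. Cas9 was driven by the hSyn promoter, which is active in neurons generally, so that excitatory and inhibitory neurons could both carry it. Mice of both groups were restrained in tubes on 7 days, fear conditioned on 1 day and put through extinction on 3 days, after more than 2 weeks of viral expression. Ages, and whether a library came from 1 animal or a pool, are not given in the labels, so that p-values measure only how far these libraries spread, which may be technical. Nr2f2 itself was counted 422, 305, 166 and 96 times over sgRosa replicates 1 to 4, against 196, 214 and 191 times over sgNr2f2 replicates 1 to 3. It lay at 15.2 ± 3.76 CPM (SD, n = 4) and 11.8 ± 0.224 CPM (SD, n = 3) and did not differ beyond that spread (edgeR log2 fold change -0.36, SE 0.37, adjusted p = 0.905). CPM are counts scaled to a common total for each library, after TMM factors that correct for differences in RNA composition. Counts of a transcript do not measure Cas9 cutting.

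An excitatory neuron packs glutamate into synaptic vesicles through a vesicular glutamate transporter, and which transporter it uses depends on where it lies. VGLUT1, made from Slc17a7, prevails in cortex, hippocampus and the basolateral amygdala, whereas VGLUT2, made from Slc17a6, prevails in thalamus, hypothalamus and the medial amygdala. The transcription factors Neurod2, Neurod6 and Tbr1 act in glutamatergic neurons that arise from the pallium, which include those of the basolateral complex. Camk2a encodes the alpha subunit of a calcium-dependent kinase of the postsynaptic density, Sv2b a glycoprotein of synaptic vesicles, Nrn1 the neurite-promoting protein neuritin, and Rspo2 a secreted enhancer of Wnt signalling that marks a class of basolateral neurons.

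Promoter windows were available for 6 of the 9 genes in a RefSeq table of the build GRCm38.p6, which is the same genome as the mm10 build named by the submitters. The 250 bases before the start of Slc17a7 and before both starts of Slc17a6 are shown because the balance of these transporters differed widely between libraries of the same group, and those of Neurod2 and Neurod6 because their counts lay mainly in the same libraries. Each is written 5′ to 3′ on the gene's own strand. The windows are chr7:45163671-45163920 (plus strand) for Slc17a7, chr7:51621580-51621829 and chr7:51624387-51624636 (plus strand) for Slc17a6, chr11:98329646-98329895 (minus strand) for Neurod2 and chr6:55681264-55681513 (minus strand) for Neurod6. Capitals mark matches to a NeuroD-type E-box (CATCTG or its reverse complement CAGATG) or a T-box core (AGGTGT or its reverse complement ACACCT).
Slc17a7: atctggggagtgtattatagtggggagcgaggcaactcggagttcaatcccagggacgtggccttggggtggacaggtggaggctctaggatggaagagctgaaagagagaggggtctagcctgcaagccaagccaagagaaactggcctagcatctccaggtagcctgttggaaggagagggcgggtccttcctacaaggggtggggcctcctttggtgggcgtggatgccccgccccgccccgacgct
Slc17a6 first start: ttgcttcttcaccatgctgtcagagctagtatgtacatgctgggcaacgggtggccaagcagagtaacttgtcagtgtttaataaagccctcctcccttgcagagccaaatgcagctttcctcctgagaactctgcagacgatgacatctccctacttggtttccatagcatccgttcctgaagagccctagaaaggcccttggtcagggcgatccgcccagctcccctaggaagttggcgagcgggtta
Slc17a6 second start: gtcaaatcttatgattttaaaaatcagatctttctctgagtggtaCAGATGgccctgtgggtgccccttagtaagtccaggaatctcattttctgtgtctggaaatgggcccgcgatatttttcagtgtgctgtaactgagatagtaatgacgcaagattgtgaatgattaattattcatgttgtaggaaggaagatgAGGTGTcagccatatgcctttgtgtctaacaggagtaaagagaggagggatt
Neurod2: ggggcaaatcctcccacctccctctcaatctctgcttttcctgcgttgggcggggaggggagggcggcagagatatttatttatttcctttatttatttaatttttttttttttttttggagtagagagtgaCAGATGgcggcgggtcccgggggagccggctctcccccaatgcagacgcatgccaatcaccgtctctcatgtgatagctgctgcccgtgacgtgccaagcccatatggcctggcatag
Neurod6: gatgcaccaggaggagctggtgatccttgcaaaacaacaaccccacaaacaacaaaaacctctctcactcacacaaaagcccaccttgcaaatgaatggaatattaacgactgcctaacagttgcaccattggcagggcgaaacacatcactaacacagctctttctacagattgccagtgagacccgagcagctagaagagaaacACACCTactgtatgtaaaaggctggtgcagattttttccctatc

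The second Slc17a6 window held an E-box 205 bases and a T-box core 52 bases before the start, the Neurod2 window an E-box at 118 bases and the Neurod6 window a T-box core at 44 bases. The motifs were searched on both strands and do not overlap each other. Of 32851 such windows in the table, 14.4% held the E-box and 11.8% the T-box core, so that matches of this kind are common. A nuclear receptor half-site (AGGTCA or its reverse complement TGACCT), present in 14.0% of all windows, was not in any of the 10 windows of these genes. Matches are letters in a window and were not read as binding sites. The bases just after the start were sought in transcripts of the annotation GENCODE release M21. They were found for Neurod2 and Neurod6, but not for Slc17a7 or for either start of Slc17a6.

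For all 9 genes the groups overlapped, whereas 8.31% of the genes tested had groups that did not overlap. Of the 6 that passed the filter on low counts, 0 passed an adjusted p of 0.05 in edgeR, as did 0% of the 14412 genes tested. Total counts ran from 6266897 to 20928677, lowest in sgRosa replicate 4. All 12 pan-neuronal markers had counts in every library, yet they summed to 502.5 to 2215.5 CPM (sgRosa) against 546.7 to 672.6 CPM (sgNr2f2), whereas 10 oligodendrocyte markers took 2.69 to 29.4% (sgRosa) and 17.9 to 32.2% (sgNr2f2) of all counts. Much of that was Mbp, at 1.47 to 25.8% per library, and with Mbp and the mitochondrially encoded genes left out the list took 1.38 to 9.97% and 4.95 to 10.1%. Neuronal markers were thus present beside oligodendrocyte transcripts, whose part in the results below was not tested. sgRosa replicate 4 stood apart, with a mean correlation to the other libraries of 0.72 against 0.88 to 0.90 for the rest, with 3.70% of counts in erythroid genes against 0.0958 to 0.316% elsewhere, and with the highest pan-neuronal sum. In such bulk libraries fewer cells of a type and less RNA per cell cannot be told apart.

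The vesicular transporters were measured at unlike levels and did not follow each other. Slc17a7 (chr7:45163921-45176139) had 23.4, 2.06, 0.748 and 7.50 CPM in sgRosa replicates 1 to 4 and 8.60, 0.280 and 21.2 CPM in sgNr2f2 replicates 1 to 3. The gene was high in 1 library of each group and near 0 in 1 library of each group, so that the groups overlapped over nearly their whole range, and the highest library exceeded the lowest 83.5-fold. The means were 8.42 ± 10.4 CPM (SD, n = 4) and 10.02 ± 10.52 CPM (SD, n = 3), a log2 fold change of 0.24 (SE 1.20, 95% confidence interval -2.42 to 2.91, edgeR adjusted p = 0.983). Without sgRosa replicate 1 the log2 fold change was 1.57, and without sgNr2f2 replicate 3 it was -0.94.

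Slc17a6 (chr7:51621830-51671126) had 70.2, 36.9, 44.96 and 138.5 CPM in sgRosa replicates 1 to 4 and 58.1, 23.1 and 17.3 CPM in sgNr2f2 replicates 1 to 3. The lowest values were those of sgNr2f2 replicates 2 and 3, below every sgRosa library, while sgNr2f2 replicate 1 lay inside the sgRosa range. The means were 72.6 ± 46.1 CPM (SD, n = 4) and 32.8 ± 22.1 CPM (SD, n = 3), a log2 fold change of -1.15 (SE 0.61, 95% confidence interval -2.50 to 0.21). It had the smallest p of the 6 tested genes and did not pass (edgeR adjusted p = 0.868). The log2 fold change was -0.63 without sgRosa replicate 4 and -1.85 without sgNr2f2 replicate 1.

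Per kilobase of exon (annotation of GENCODE release M21), Slc17a6 lay above Slc17a7 in 6 of 7 libraries. The share of Slc17a7 in the counts of both transporters, which have nearly equal exon lengths of 5.392 and 5.399 kb, was 25.01% in sgRosa replicate 1 (exact 95% binomial interval 23.1 to 27.0%), 5.29% in replicate 2 (3.77 to 7.19%), 1.64% in replicate 3 (0.821 to 2.91%) and 5.14% in replicate 4 (3.90 to 6.64%). It was 12.9% in sgNr2f2 replicate 1 (10.99 to 15.04%), 1.20% in replicate 2 (0.391 to 2.78%) and 55.2% in replicate 3 (51.2 to 59.1%). The intervals cover counting error only and treat each read as an independent molecule. PCR reads without molecular identifiers are not independent, so the intervals may be too narrow even for counting error. The libraries of one group differed far beyond these intervals, and the groups overlapped, at 9.27 ± 10.6% (SD, n = 4) and 23.1 ± 28.4% (SD, n = 3).

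**Figure D1:**
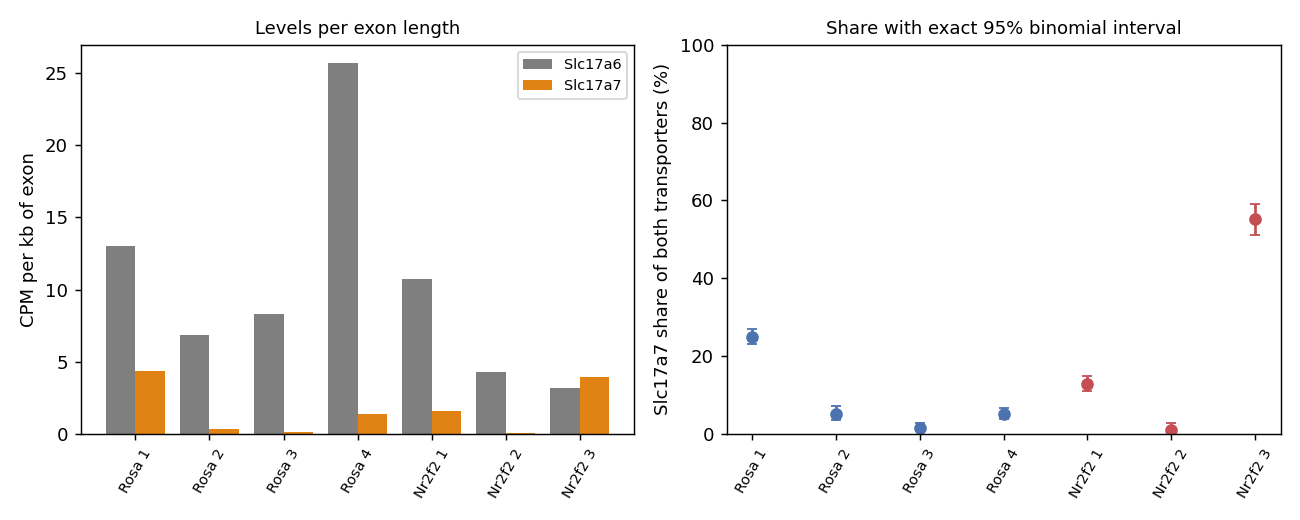
Left, level of Slc17a6 and Slc17a7 in each library in CPM per kilobase of exon. Right, share of Slc17a7 in both transporters in percent, with exact 95% binomial intervals (blue sgRosa, red sgNr2f2). Slc17a6 is the taller bar in 6 of 7 libraries, and the share runs from 1.20 to 55.2% within the sgNr2f2 group alone.

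Genes listed as markers of regions next to the amygdala were measured for the same libraries. Whether amygdala cells express them too was not tested, so the list is no measure of neighbouring tissue. The 7 genes Sim1, Otp, Lhx9, Tcf7l2, Lef1, Prox1 and Foxp2 reached sums of 263.4 to 400.8 CPM (sgRosa) against 329.8 to 511.5 CPM (sgNr2f2). Lef1 and Tcf7l2 carried most of these sums. Lef1, a Wnt effector that endothelial cells also express, was highest at 399.3 CPM in sgNr2f2 replicate 2. The sum of 6 endothelial markers was highest there as well, at 4410 CPM, though not each of these markers was. As a share of all counts the endothelial sum was highest in sgRosa replicate 1, at 0.574% against 0.477% in sgNr2f2 replicate 2. What other cells added to the sum of the 7 genes was not tested. Of the 5 genes tested, 1 lay below and 4 above 0, with a median log2 fold change of 0.09, or -0.15 when scaled by library size alone, and 0 were called. Tcf7l2, a Wnt effector strongly expressed in the thalamus and also in the oligodendrocyte lineage, had 81.3, 78.9, 54.8 and 41.4 CPM in sgRosa replicates 1 to 4 and 146.3, 89.9 and 119.6 CPM in sgNr2f2 replicates 1 to 3. Every sgNr2f2 library lay above every sgRosa library (log2 fold change 0.89, SE 0.43, edgeR adjusted p = 0.868, not passed). Of all tested genes, 4.41% lay without overlap and higher in sgNr2f2, and Lef1 was at 0.06 (SE 0.57), or -0.63 without sgNr2f2 replicate 2. The part of tissue from neighbouring regions in the transporter balance was not tested.

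Among the synaptic genes, Camk2a (chr18:60925307-60988152) had 158.2, 33.4, 12.4 and 303.8 CPM in sgRosa replicates 1 to 4 and 72.5, 13.6 and 81.2 CPM in sgNr2f2 replicates 1 to 3. The highest and the lowest library were both sgRosa, and the sgNr2f2 libraries lay between them. The means of 126.9 ± 134.3 CPM (SD, n = 4) and 55.7 ± 36.8 CPM (SD, n = 3) gave a log2 fold change of -1.19 (SE 0.99, 95% confidence interval -3.39 to 1.01, edgeR adjusted p = 0.891). It was -0.29 without sgRosa replicate 4. The other CaMKII subunit genes, beta, delta and gamma, had log2 fold changes of -0.49 for Camk2b (SE 0.58), -0.12 for Camk2d (SE 0.37) and -0.51 for Camk2g (SE 0.38), and none passed. Camk2b was at 0.26 without sgRosa replicate 4, the library in which it was highest.

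Sv2b (chr7:75114894-75309262) had 22.5, 4.01, 6.94 and 13.5 CPM in sgRosa replicates 1 to 4 and 7.75, 6.45 and 9.87 CPM in sgNr2f2 replicates 1 to 3. The sgNr2f2 libraries were close together and lay inside the sgRosa range. The means were 11.7 ± 8.20 CPM (SD, n = 4) and 8.02 ± 1.73 CPM (SD, n = 3), a log2 fold change of -0.55 (SE 0.58, 95% confidence interval -1.84 to 0.74, edgeR adjusted p = 0.908), which was -0.02 without sgRosa replicate 1. For Sv2a, the family member found in most neurons, the difference on the log2 scale was -0.57 (SE 0.55), and -0.02 without sgRosa replicate 4. Exons of Sv2b overlap 1500012K07Rik on the opposite strand, and the counting is not stated to use strand. Reads in the shared stretch, whose length was not measured, therefore cannot be told apart.

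Nrn1 (chr13:36725622-36734477) had 18.3, 8.66, 9.66 and 1.499 CPM in sgRosa replicates 1 to 4 and 7.57, 5.72 and 9.44 CPM in sgNr2f2 replicates 1 to 3. It was lowest in sgRosa replicate 4, the library in which Slc17a6 and Camk2a were highest, and the sgNr2f2 libraries again lay inside the sgRosa range. The means were 9.54 ± 6.90 CPM (SD, n = 4) and 7.58 ± 1.86 CPM (SD, n = 3), a log2 fold change of -0.34 (SE 0.66, 95% confidence interval -1.81 to 1.13, edgeR adjusted p = 0.953), which was 0.18 without sgRosa replicate 1. Its exons overlap Fars2 on the opposite strand, with the same limit.

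The transcription factors were scarce. Tbr1 (chr2:61802863-61814114), a T-box factor, was counted 101, 8, 1 and 2 times over sgRosa replicates 1 to 4, against 15, 12 and 28 times over sgNr2f2 replicates 1 to 3. sgRosa replicate 1 held 90.2% of its sgRosa counts, and each sgNr2f2 library lay above the 3 other sgRosa libraries. The means were 1.38 ± 2.24 CPM (SD, n = 4) and 1.09 ± 0.535 CPM (SD, n = 3), a log2 fold change of -0.37 (SE 1.18, 95% confidence interval -2.99 to 2.25, edgeR adjusted p = 0.969). Without sgRosa replicate 1 the value was 2.03, of the opposite sign.

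Neurod2 (chr11:98325415-98329645), a basic helix-loop-helix factor, was counted 75, 6, 2 and 0 times over sgRosa replicates 1 to 4, against 0, 4 and 38 times over sgNr2f2 replicates 1 to 3. Its relative Neurod6 (chr6:55677818-55681263) had 139, 1, 4 and 2 counts, and 0, 2 and 17 counts. In both genes sgRosa replicate 1 was highest and sgNr2f2 replicate 3 second, and the other libraries had 6 counts or fewer. A count of 0 allows up to 0.409 CPM of Neurod2 in sgRosa replicate 4 and up to 0.182 CPM of either gene in sgNr2f2 replicate 1. Means were 0.994 ± 1.69 and 0.842 ± 1.27 CPM for Neurod2 and 1.78 ± 3.16 and 0.380 ± 0.565 CPM for Neurod6 (SD, n = 4 sgRosa and n = 3 sgNr2f2), and both failed the filter on low counts.

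Rspo2 (chr15:43020788-43171594) was counted 13, 16, 9 and 1 times over sgRosa replicates 1 to 4, against 1, 0 and 10 times over sgNr2f2 replicates 1 to 3. The sgRosa libraries except replicate 4 lay near sgNr2f2 replicate 3, and the groups overlapped, at 0.556 ± 0.305 CPM (SD, n = 4) and 0.222 ± 0.333 CPM (SD, n = 3). The 0 in sgNr2f2 replicate 2 allows up to 0.168 CPM, and the gene failed the filter, so that it has no value in the fit of all 7 libraries. Where it was fitted its log2 fold change was -1.38 with no filter, and with 1 sgNr2f2 library left out it ran from -3.94 (without replicate 3) to -0.76 (without replicate 2), and it did not pass.

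**Figure D2:**
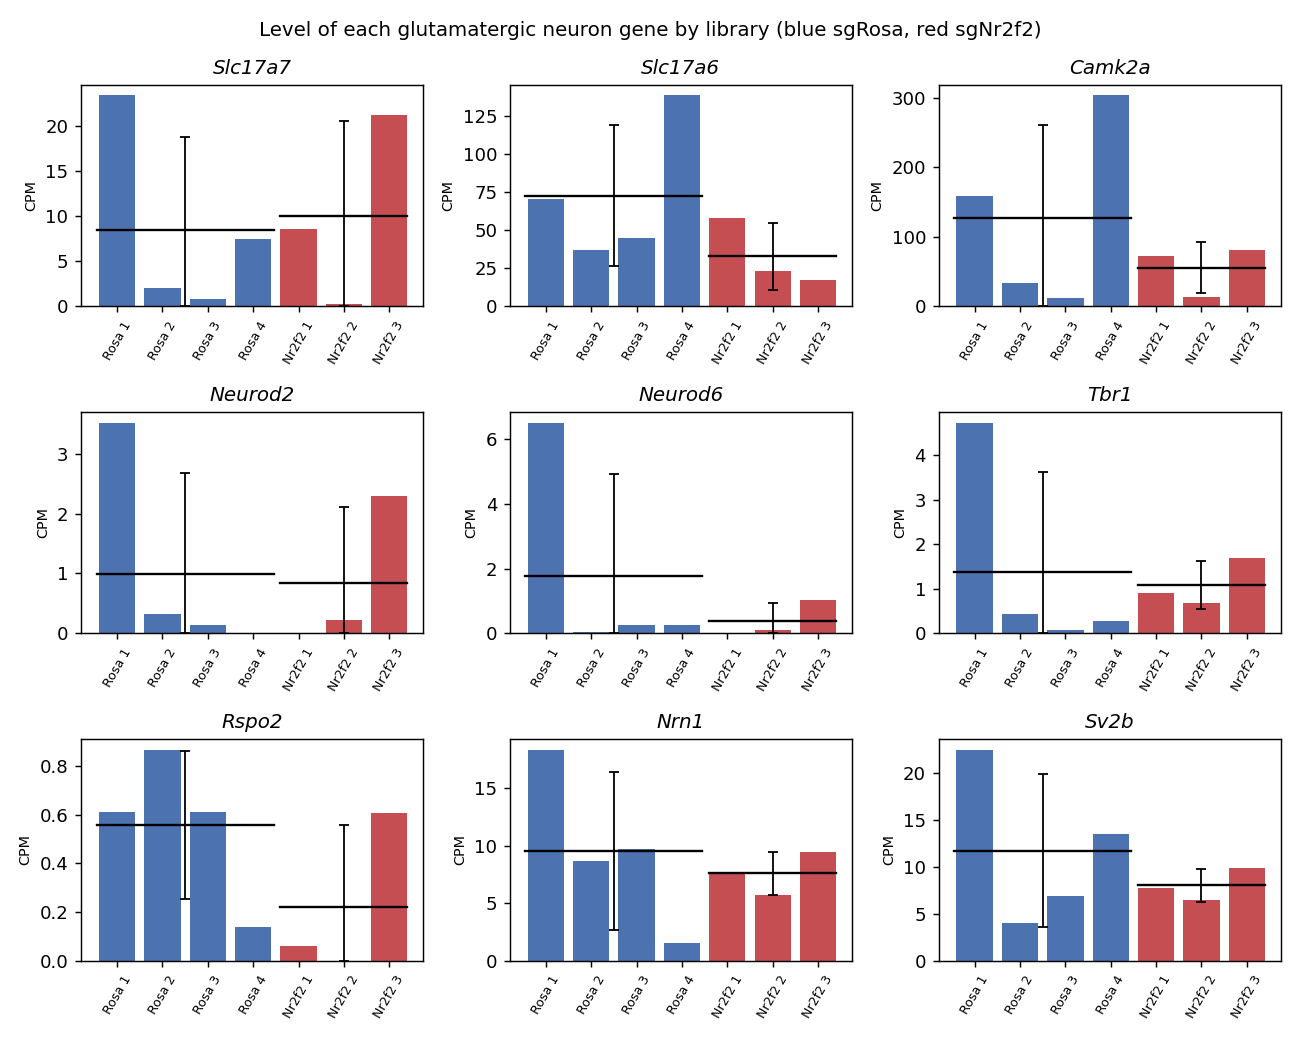
Level in CPM of each of the 9 genes in each library (blue sgRosa, red sgNr2f2), with a vertical axis per gene. Horizontal lines are group means and vertical bars 1 SD, ended at 0 where the SD exceeds the mean. The tallest bar is sgRosa replicate 1 in 6 genes, sgRosa replicate 4 in 2 and sgRosa replicate 2 in 1, and the groups overlap in every panel.

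Read together, 6 of the 9 genes passed the filter on low counts and were tested among 14412 genes. By edgeR's quasi-likelihood test, 0 of the 6 had an unadjusted p under 0.05, against 5% of all genes tested. The smallest adjusted p of any gene was 0.868, and the genes with an unadjusted p under 0.05 divided into 314 higher and 407 lower in sgNr2f2. DESeq2 called 7 genes on the same counts, none of them among the 9. A log2 fold change below 0 was found in 5 of 6 genes, against 56.2% of all tested genes, and the median was -0.46 against -0.11 over all tested genes. Without sgRosa replicate 1 this median was 0.08, and with limma-voom and quality weights, which give less weight to libraries that stand apart, it was 0.81, with 2 of 6 below 0. Scaled to the pan-neuronal sum the median was -0.09, while that of all tested genes moved to 0.29. Lists of other cells were mixed or lay to one side. Mixed were those of astrocytes (5 of 8 below 0), microglia (4 of 7) and oligodendrocyte precursors (2 of 6). Endothelial (4 of 6) and choroid plexus markers (3 of 5) were mixed as well. The remaining lists lay to one side. Above 0 were 10 of 10 oligodendrocyte markers (median 0.54, or 0.22 without sgRosa replicate 4). Below 0 were 4 of 4 tested pericyte markers (median -1.25), but 2 of 4 without sgRosa replicate 2 (median -0.37). Also below 0 were 5 of 5 erythroid markers (median -2.64, or -0.61 without sgRosa replicate 4). Of these markers 0 were called, and their part in the values of the excitatory genes was not tested.

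**Figure D3:**
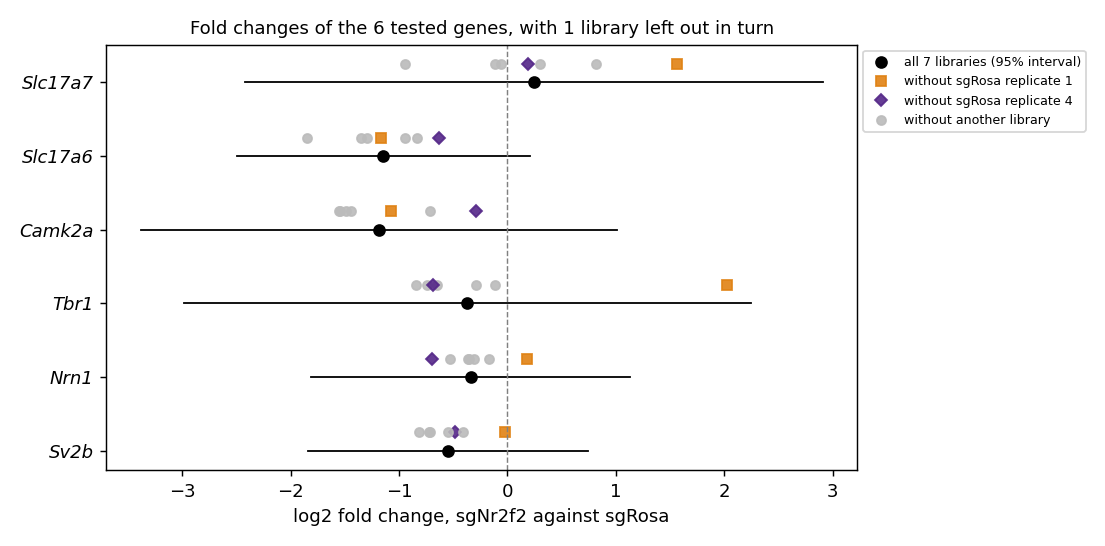
Log2 fold change of sgNr2f2 against sgRosa for the 6 tested genes, with 95% confidence intervals over all 7 libraries (black) and the values with 1 library left out (symbols above each line). Every interval crosses 0. Leaving out sgRosa replicate 1 moves Tbr1 to 2.03 and Slc17a7 to 1.57, and leaving out sgRosa replicate 4 moves Camk2a to -0.29.

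Levels were compared between genes per kilobase of exon. Median levels over the 7 libraries were 9.71 CPM per kb for Camk2a, 8.33 for Slc17a6 and 3.85 for Nrn1, followed by 1.39 for Slc17a7 and 0.925 for Sv2b. The ranges of the first 2 overlapped widely, at 1.67 to 40.7 CPM per kb for Camk2a and 3.20 to 25.6 CPM per kb for Slc17a6, and those of Slc17a7 and Sv2b did so as well. Neurod6, Tbr1, Rspo2 and Neurod2 followed at medians of 0.127, 0.123, 0.118 and 0.0714 CPM per kb, which are not separated beyond their spread.

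Set against neuronal content, the genes still differed between libraries. For every 1000 counts of the 12 pan-neuronal markers, the 9 genes had 382.8, 172.5, 95.5 and 210.1 over sgRosa replicates 1 to 4, against 233.8, 91.7 and 214.9 over sgNr2f2 replicates 1 to 3. The 12 GABAergic markers, which mark inhibitory neurons, had 193.6, 217.7, 211.6 and 133.7, and 199.9, 169.0 and 203.7 counts on the same scale. The excitatory sum thus ranged wider than the inhibitory sum over the same libraries, in both groups, and no test was made of that. Camk2a alone held from 16.4% (sgRosa replicate 3) to 65.3% (sgRosa replicate 4) of the counts of the 9 genes. The sum therefore follows this gene in large part. In sgRosa replicate 4 the summed markers of the central amygdala and striatum, whose neurons are GABAergic, were also highest, at 473.7 CPM. Whether the Camk2a counts came from excitatory neurons alone was not tested. On this scale Slc17a6 was at 70.0 ± 13.5 (SD, n = 4) and 51.7 ± 31.9 (SD, n = 3) and Sv2b at 12.7 ± 10.2 and 12.7 ± 1.70 counts per 1000. With libraries scaled to the pan-neuronal sum, the edgeR log2 fold change of Slc17a6 was -0.43 and that of Camk2a -0.29.

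**Figure D4:**
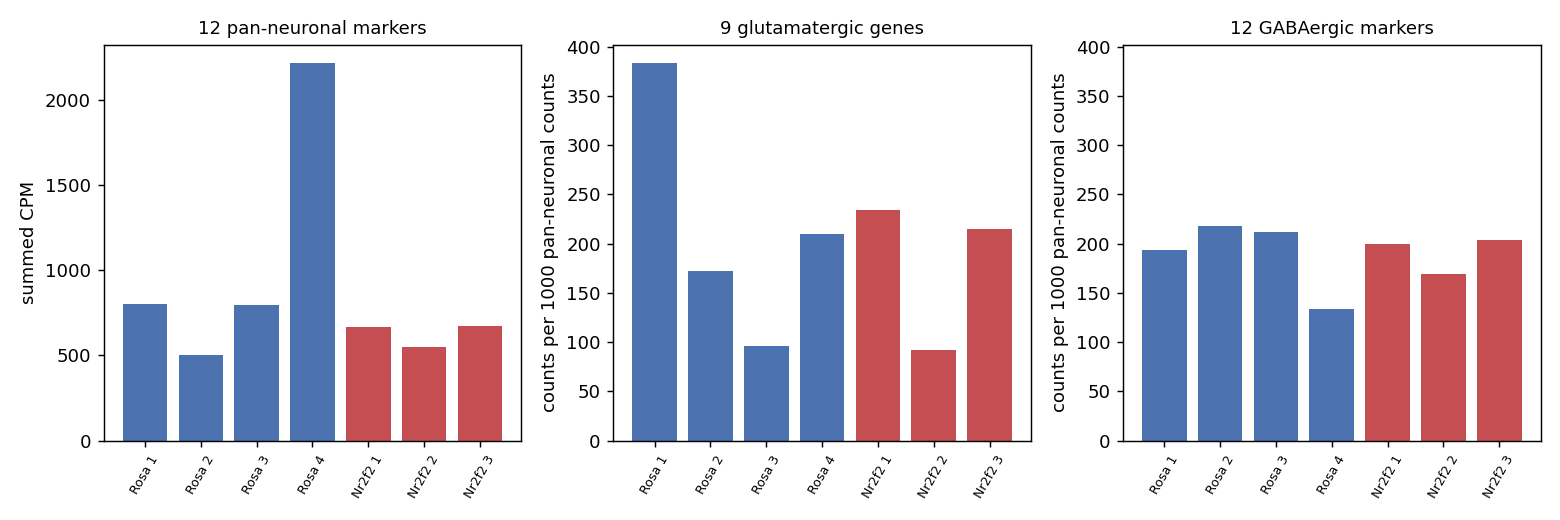
Left, summed level of 12 pan-neuronal markers in CPM by library. Middle and right, counts of the 9 excitatory genes and of 12 GABAergic markers for every 1000 pan-neuronal counts (blue sgRosa, red sgNr2f2). sgRosa replicate 4 has the highest pan-neuronal sum at 2215.5 CPM and sgRosa replicate 1 the highest excitatory count at 382.8, while GABAergic counts run from 133.7 to 217.7.

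The genes were also compared for likeness of pattern across the 7 libraries. As a description of log2 CPM with no test, Pearson's r was 0.85 (Spearman's rho 0.75) between Slc17a7 and Camk2a, 0.27 (rho 0.29) between Slc17a7 and Slc17a6, 0.84 (rho 0.58) between Neurod2 and Neurod6 and 0.82 (rho 0.75) between Neurod6 and Sv2b. Without sgRosa replicate 4 these were 0.97, 0.22, 0.91 and 0.89. Libraries share depth and cell content in all such pairs. Of 11953 other genes, those closest to Slc17a7 were Vps53, Bcan, Sesn2, Gpr12 and Sox4, with r from 0.95 to 0.99. Those closest to Slc17a6 were Rdh14, Dffa, Ppt1, Arl6ip1 and Rxra, with r from 0.97 to 0.99. Taking the highest r of so many genes over 7 libraries yields high values by the choice itself, so they do not mark shared regulation. Vps53, for example, ran only from 12.5 to 16.9 CPM.

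Related genes of the same families and pathways were described by counts. Of 14 paralogs of the 9 genes, 9 were tested, of which 8 lay below 0 and 0 were called, with a median log2 fold change of -0.57, or -0.04 with pan-neuronal scaling. Neurod1, the NeuroD family's founding member, had 5.44, 0.758, 0.680 and 0.818 CPM in sgRosa replicates 1 to 4 and 0.0606, 0.112 and 0.182 CPM in sgNr2f2 replicates 1 to 3, so that every sgNr2f2 library lay below every sgRosa library. The sgNr2f2 values rest on 6 counts in all, against 146 in sgRosa, of which 116 were in replicate 1. The ratio in pooled level was 20.02 (exact 95% interval 8.98 to 55.4, counting error only). That interval does not cover the spread between libraries, and with PCR reads it may be too narrow even for counting error. The log2 fold change was -3.96 (SE 1.14) and did not pass (edgeR adjusted p = 0.868), and it was -2.59 without sgRosa replicate 1. Rspo3, a relative of Rspo2, had 4.22, 12.3, 2.04 and 3.54 CPM and 0.424, 0.392 and 1.09 CPM, again without overlap (log2 fold change -3.12, SE 0.80, edgeR adjusted p = 0.868), and -2.33 without sgRosa replicate 2. DESeq2 did not call either gene with all 7 libraries but called both when sgRosa replicate 4 was left out, a setting chosen after seeing the data (adjusted p = 0.0168 for Neurod1 and 0.00429 for Rspo3). Over all tested genes, 3.9% lay without overlap and lower in sgNr2f2.

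Of 18 further markers of glutamatergic neurons, 15 were tested, with 13 below 0, 2 above 0, 0 called and a median of -0.66, which was -0.11 with pan-neuronal scaling, -0.29 without sgRosa replicate 4 and 0.44 with limma-voom and quality weights. Those with the smallest p besides Neurod1 were Dkk3, a secreted glycoprotein of the dickkopf family, at 42.0 ± 29.3 and 11.8 ± 2.84 CPM (log2 fold change -1.83, SE 0.60, edgeR adjusted p = 0.868), and Nptx1, a neuronal pentraxin that gathers AMPA receptors at synapses, at 26.2 ± 19.1 and 7.98 ± 2.39 CPM (log2 fold change -1.71, SE 0.71, edgeR adjusted p = 0.868), with n = 4 and n = 3. The groups overlapped for both. With limma-voom and quality weights the values were -0.83 for Dkk3 and -0.38 for Nptx1, and Nptx1 was at -0.91 with pan-neuronal scaling. Of 9 genes for glutamate synthesis and uptake, 8 were tested, with 3 below and 5 above 0 and a median of 0.09, which was -0.14 when scaled by library size alone. Among them Slc1a1, the neuronal glutamate transporter EAAC1, lay at 0.49 (SE 0.56). Of 12 genes of the R-spondin pathway, 10 were tested, with 6 below and 4 above 0 and a median of -0.50, which was 0.03 with pan-neuronal scaling. The Wnt co-receptor gene Lrp6 had 30.0, 36.4, 34.4 and 14.7 CPM over the sgRosa libraries and 42.6, 39.0 and 36.6 CPM over the sgNr2f2 libraries, which were higher without overlap (log2 fold change 0.45, SE 0.41, edgeR adjusted p = 0.897). Its relative Lrp5 was at 1.36 (SE 0.64, edgeR adjusted p = 0.868), with groups that overlapped.

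Neuronal lists that are not excitatory were set beside these. All 12 pan-neuronal markers were tested, with 11 below 0, 0 called and a median of -0.70, but without sgRosa replicate 4 there were 7 below 0, with a median of -0.18. Map2, a dendritic microtubule protein, did not overlap between groups (log2 fold change -1.02, SE 0.44, edgeR adjusted p = 0.868). Of 12 GABAergic markers 9 were tested, with 6 below 0 and a median of -0.35, which was 0.09 with pan-neuronal scaling and -0.06 without sgRosa replicate 4. Of 10 markers of the central amygdala and striatum, whose neurons are GABAergic, 9 were tested, with 4 below and 5 above 0. Their median was 0.33, or 0.93 with pan-neuronal scaling, 0.03 when scaled by library size alone and -0.20 with no filter. Without sgNr2f2 replicate 3 the median was -1.01, with 7 of 9 below 0, so the direction of this list was not stable. Gad2, a GABA-synthesizing enzyme, was at -1.002 (SE 0.54). Map2 and Gad2 were nearer to 0 without sgRosa replicate 4, at -0.68 for Map2 and -0.50 for Gad2. By an exact two-sided permutation test, which cannot give a p below 0.0286 with 4 against 3 libraries, the pan-neuronal share of counts gave p = 0.314 and the GABAergic share p = 0.229 (12 marker lists compared). Adjusted over the 12 lists, a single list could not go below 0.343 in this design, so that the adjusted p of 0.96 says nothing of stability. These values stand beside those of the excitatory genes, and the part of neuronal content in them was not tested.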

How the data were processed

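Per the labels' protocols, amygdala tissue was digested with papain, neurons were isolated with a Miltenyi MACS kit and 5 ng of total RNA was made into libraries with a NEBNext kit. The authors deposited raw gene counts, in 7 single-library files that equal the series table. The submitters' processing notes name fastp 0.23.2, STAR 2.7.5c, featureCounts 2.0.1, edgeR 3.42.4 and build mm10. Neither the annotation nor the strand setting is given in the sources used here.

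From the counts, edgeR 4.0.16 (R 4.3.3) fitted all genes with TMM factors, filterByExpr (14412 of 35976 genes kept) and group as the only term. P-values from its quasi-likelihood F test were adjusted by Benjamini-Hochberg, with a threshold of 0.05. CPM use TMM-scaled totals, and log2 CPM a prior count of 2. Exon lengths come from GENCODE M21 and promoter windows from RefSeq. The fit was tested on simulated counts.

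The members and lists were chosen with earlier results of these data known. Named genes are the 9 members, Nr2f2, tested paralogs, from each list the 3 of smallest p and the most abundant, and for likeness the 5 genes of highest r having an official symbol and a mean of at least 20 counts. Alternatives were other scalings, no filter, DESeq2 1.42.0, limma-voom 3.58.1, a replicate block and leaving out each library. Counts limit precision: 3 counts behind a 0 correspond to 0.141 to 0.409 CPM.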

Additional observations from a re-analysis of the deposited data

Results flagged for a closer look

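In the group of 4 sgRosa libraries, 8 of 38 measures examined had 1 library far from the others by Dixon's 95% criterion, which sets the gap to the nearest library against the range of the group. Chance flags about 1 in 20 only where values are normally distributed and measures are independent. The measures here share the same 4 libraries, and their distribution was not tested. The 8 flags therefore cannot be set against that rate. Of the 8 flags, 4 come from transcription factor genes in sgRosa replicate 1, at 3.52 CPM for Neurod2, 6.52 CPM for Neurod6, 4.73 CPM for Tbr1 and 5.44 CPM for Neurod1. In sgRosa replicate 4, Sv2a lay at 320.4 CPM, markers of the central amygdala and striatum took 0.0555% of counts and erythroid markers took 3.70%. Choroid plexus markers took 0.0858% of counts in sgRosa replicate 2. The cause was not tested for any of these.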

How the results depend on the processing

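Of the 6 tested genes, 0 passed an adjusted p of 0.05 in the 17 other settings (DESeq2 gave no p for Tbr1 with all libraries), and Slc17a6 kept its direction in all 17. edgeR called 0 genes with each other scaling, without a filter and with each library left out, limma-voom called 0, and DESeq2 called 7 (2 higher, 5 lower). DESeq2 without sgRosa replicate 4, chosen after seeing the data, called 372 (256 higher, 116 lower), among them Neurod1 (log2 fold change -4.25, adjusted p = 0.0168) and Rspo3 (-3.26, adjusted p = 0.00429). Over the other alternatives neither was called. In edgeR, leaving out 1 library gave 0 genes past the threshold, from 3 of 6 fitted genes below 0 (without sgRosa replicate 1) to 7 of 7 (without sgNr2f2 replicate 3), and a median from -0.84 to 0.08. It gave log2 fold changes from -0.94 to 1.57 for Slc17a7, -0.84 to 2.03 for Tbr1, -0.69 to 0.18 for Nrn1, -0.72 to 0.26 for Camk2b, -0.014 to 0.91 for Slc1a1 and -0.63 to 0.38 for Lef1. Within these, Slc17a7 was -0.06 without sgRosa replicate 2 and -0.11 without sgRosa replicate 3.

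Without a filter 8 of the 9 genes lay below 0. With quality weights limma-voom placed 2 below 0, with a median of 0.81, and gave 1.23 for Camk2a, 1.97 for Tbr1, 0.39 for Sv2b and 0.45 for Camk2b. Plain limma-voom gave -0.16 for Slc17a7 and 0.73 for Tbr1. Scaling by library size alone gave -0.40 for Slc17a7, and scaling to pan-neuronal markers 0.35 for Camk2b, 0.27 for Camk2d and 0.16 for Sv2a. DESeq2 without sgRosa replicate 4 gave 0.28 for Camk2b and 0.0085 for Sv2a. Lef1 was -0.026 with upper-quartile factors, -0.15 with library size alone and -0.050 with limma-voom. The median of all tested genes was -0.11, against -0.33 with library size alone and 0.29 with pan-neuronal scaling. The cause of these changes was not tested.

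Same-numbered libraries of the groups did not deviate together (r = -0.20, -0.26 and 0.09). With so few libraries, deviations from a group mean cannot show whether the numbers mark a shared litter, day or batch. The labels do not state it, so the main fit did not pair the libraries. With the replicate block 0 genes were called, and the values were -0.27 for Slc17a7, 0.57 for Tbr1 and 0.29 for Camk2b. Low counts limit Neurod2, Neurod6 and Rspo2, which had under 20 counts in most libraries. The same holds for Tbr1, although it passed the filter.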
